A study of Homo sapiens with 2 samples.

Results

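The genes described here are 10 markers of stromal cells, the fibroblasts and pericytes that build connective tissue, measured in SK-N-AS (AS), a cell line from a human neuroblastoma. A total of 5 encode small leucine-rich proteoglycans (SLRPs), namely LUM, DCN, BGN, FMOD and OGN, and the other 5 are FAP, CD248, CPXM1, PDPN and THY1. They are 10 of the 62573 rows of the deposited table, each found by its symbol and each alone in its row. The genes were chosen by their FPKM (reads scaled to transcript length and library size) in the same libraries that are compared, so every difference below is a description. AS STRAP KO cells came from a single sorted cell after CRISPR-Cas9 editing of STRAP, which encodes serine-threonine kinase receptor-associated protein, while AS WT cells are the unedited parental culture. Both were grown in DMEM with serum and left untreated, and the line is MYCN non-amplified. The labels give 1 sample and the deposited file 1 column for each condition, treated here as 1 library. The study's methods state biologic replicates for its experiments, but how they entered the column is not known, and if several were pooled the intervals below cover the pooled reads. Differences were therefore not checked against replicates or tested, and a change by the edit cannot be told apart from a difference between 1 clone and its parental culture.

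STRAP itself had 179 FPKM in AS STRAP KO and 244 FPKM in AS WT, and FPKM over a whole gene does not show the edit. A gene at 1 FPKM had an estimated 26.65 reads per kilobase in AS STRAP KO and 26.25 in AS WT, so the estimated depths were close. Intervals below are exact and cover counting error only. A value of 0 is written as listed at 0 and given no fold, since RPS18, a ribosomal protein gene of all cells, stood at 0 on both sides in all 7 of its rows. Among the neuroblastoma markers, HAND2 had 228 FPKM in AS STRAP KO and 227 FPKM in AS WT. PHOX2A and ISL1 were the 2 of 6 expressed markers that passed 2-fold, both lower in AS STRAP KO, while TH, DDC and CHGA were listed at 0 in both.

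SLRPs are secreted matrix proteins built around a curved row of leucine-rich repeats. Most bind collagen and space its fibrils. Decorin (DCN) and biglycan (BGN) carry chondroitin or dermatan sulfate chains, while lumican (LUM) and fibromodulin (FMOD) can carry keratan sulfate. Osteoglycin (OGN), also called mimecan, belongs to another class of the family. The other 5 genes mark stromal cells from the outside. FAP is a membrane serine protease of activated fibroblasts, CD248 (endosialin) a C-type lectin-like receptor of pericytes and fibroblasts, and THY1 (CD90) a lipid-anchored surface protein of fibroblasts and neurons. PDPN (podoplanin) is a mucin-like membrane protein of lymphatic endothelium and of reticular fibroblasts, and CPXM1 is a secreted member of the metallocarboxypeptidase family that lacks enzyme activity.

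Most of these genes were much lower in AS STRAP KO, while BGN went the other way. Of the 10, 7 had at least 1 FPKM in at least 1 library. Of these 7, 6 had a value above 0 in both libraries, and among them AS STRAP KO was lower by 2-fold or more for 5 and higher by 2-fold or more for 0. The seventh, DCN, has no ratio, since its AS STRAP KO value was listed at 0. The same filter kept 13527 rows of the table, of which 10.6% were lower and 8.31% higher by 2-fold or more, rows listed at 0 in 1 library included, and 81.1% were within 2-fold. Because the genes were picked for these values, nothing is read from that contrast. In AS STRAP KO 3 of the 10 reached 1 FPKM, against 7 in AS WT. In a bulk culture, fewer cells that express a gene and less RNA per cell cannot be told apart.

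**Figure D1:**
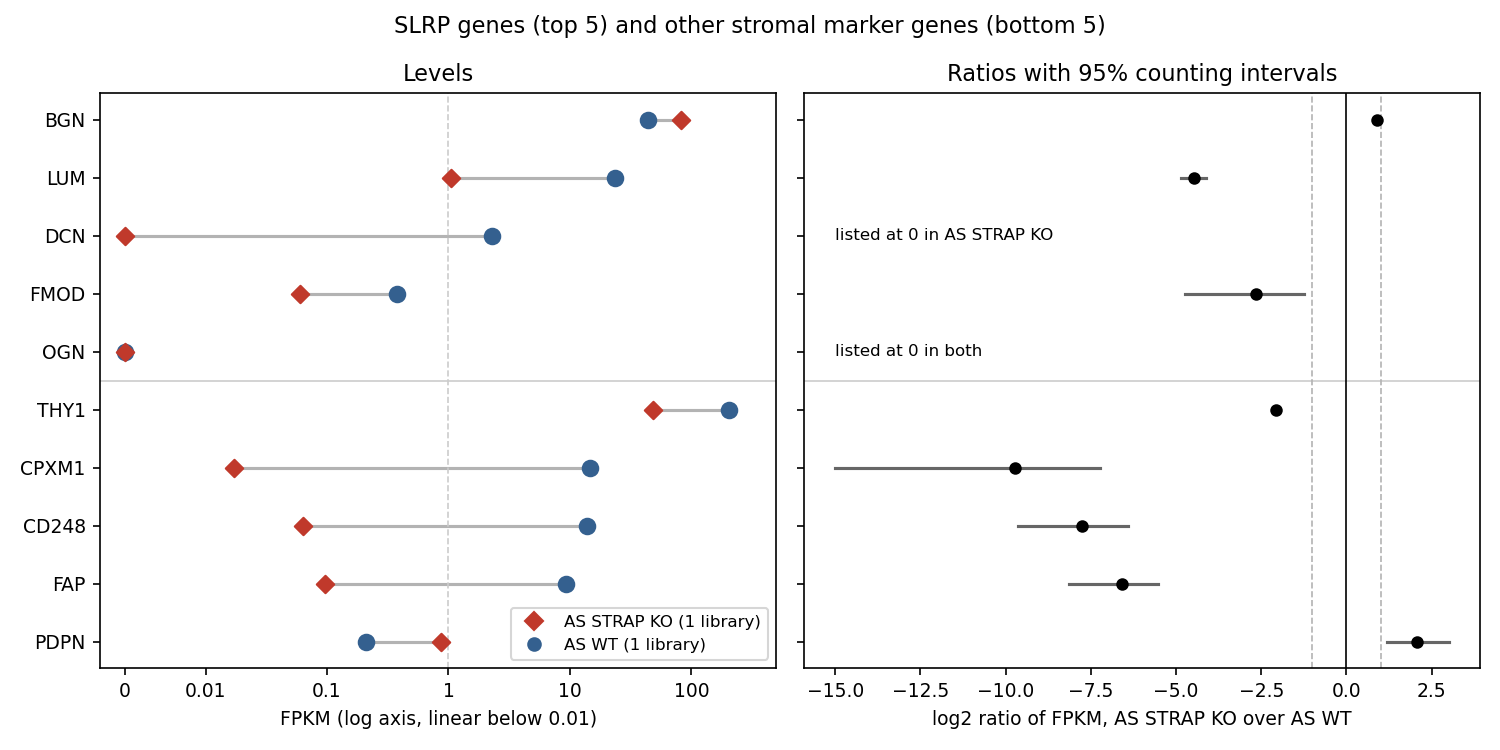
FPKM of each gene in AS STRAP KO (diamonds) and AS WT (circles) on a log axis, and the log2 ratio with its 95% counting interval (bars; dashed lines mark 2-fold). CPXM1, CD248 and FAP lie below 0.1 FPKM in AS STRAP KO, and BGN and PDPN are the genes with a higher value there.

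Among the SLRPs, BGN was the most abundant in both libraries. It had 81.7 FPKM in AS STRAP KO and 44.2 FPKM in AS WT, a log2 ratio of 0.89 (95% interval 0.82 to 0.96), or 1.85-fold higher. BGN did not reach 2-fold, and its log2 ratio was 0.99 when both libraries were rescaled to a common total. LUM had 1.06 FPKM in AS STRAP KO and 23.7 FPKM in AS WT, a log2 ratio of -4.49 (95% interval -4.84 to -4.13). At the length of its canonical transcript of 2671 bases this is about 70 reads in AS STRAP KO and 1536 reads in AS WT, so the size of the LUM difference does not rest on a few reads. DCN had 0 FPKM in AS STRAP KO, against 2.27 FPKM in AS WT.

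The remaining SLRPs, FMOD and OGN, did not reach 1 FPKM in either library. FMOD had 0.0595 FPKM in AS STRAP KO and 0.377 FPKM in AS WT, about 4 and 27 reads in the same order, with a log2 ratio of -2.66 (95% interval -4.75 to -1.26). OGN was listed at 0 in both libraries. The balance among SLRPs therefore differed between the libraries. Of the summed FPKM of 18 SLRP genes, BGN held 86.8% in AS STRAP KO and 56.0% in AS WT, while LUM held 1.12% in AS STRAP KO and 30.0% in AS WT. The level of BGN was 77.4 times that of LUM in AS STRAP KO and 1.87 times that of LUM in AS WT.

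THY1 was the most abundant of the stromal surface markers. It had 48.4 FPKM in AS STRAP KO and 204 FPKM in AS WT, a log2 ratio of -2.08 (95% interval -2.12 to -2.03), or 4.21-fold lower. Even so, its level in AS STRAP KO was above that of 80.2% of the expressed rows there, against 95.5% in AS WT. THY1 thus stayed a well expressed gene, unlike the 3 genes described next.

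CPXM1, CD248 and FAP were moderately expressed in AS WT and almost without reads in AS STRAP KO. CPXM1 had 0.0172 FPKM in AS STRAP KO and 14.5 FPKM in AS WT. It has 1 annotated transcript, of 2376 bases, so these levels correspond to 1 read in AS STRAP KO and 829 reads in AS WT. The log2 ratio of CPXM1 was -9.72, and with a single read its 95% interval ran from -15.02 to -7.23. CD248, also with 1 transcript and a single exon, had 0.0637 FPKM in AS STRAP KO and 13.9 FPKM in AS WT, or 4 and 856 reads, with a log2 ratio of -7.77 (95% interval -9.64 to -6.40). FAP had 0.0956 FPKM in AS STRAP KO and 9.22 FPKM in AS WT, about 6 and 604 reads over its canonical transcript of 2696 bases, with a log2 ratio of -6.59 (95% interval -8.13 to -5.54). The intervals of these 3 genes overlap, so their order by size of change is not fixed by these reads. The bound nearest to 0 among the 3 was -5.54.

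PDPN was low in both libraries and higher in AS STRAP KO. It had 0.869 FPKM in AS STRAP KO and 0.208 FPKM in AS WT, about 59 and 14 reads, a log2 ratio of 2.06 (95% interval 1.20 to 3.01). It did not reach 1 FPKM in either library and is outside the count above. THY1 and PDPN therefore stood on opposite sides of 0, although both mark fibroblasts.

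**Figure D2:**
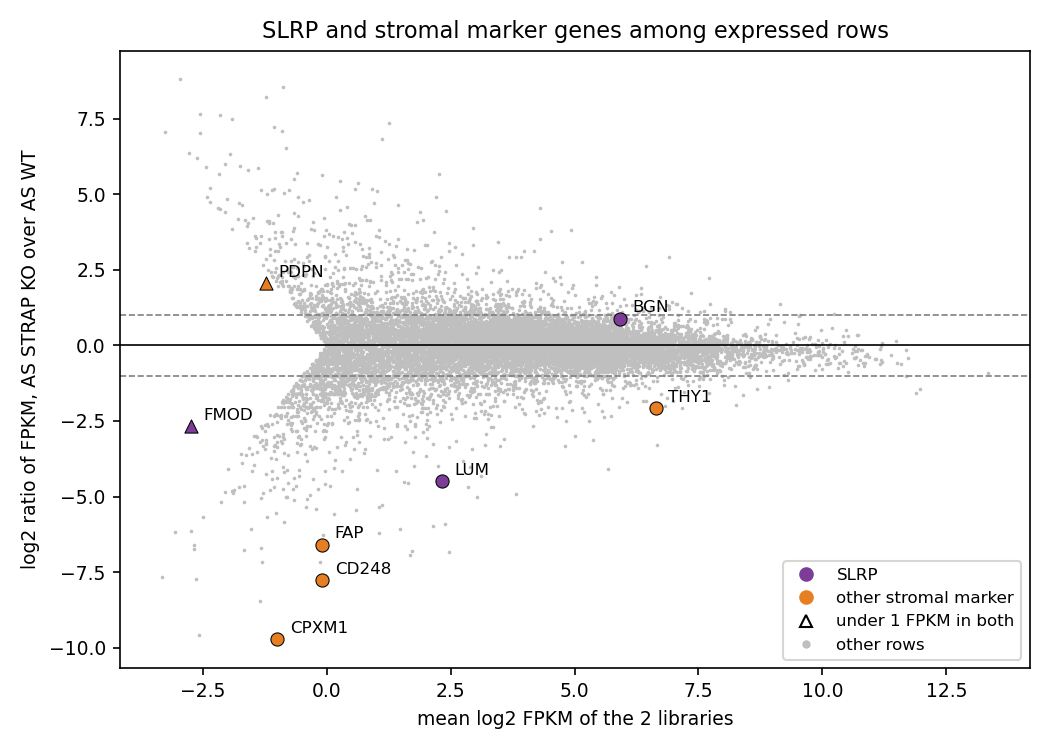
Log2 ratio of AS STRAP KO over AS WT against the mean log2 FPKM for expressed rows above 0 in both libraries (grey) with the SLRP and stromal marker genes named; dashed lines mark 2-fold. FMOD and PDPN (triangles) were under 1 FPKM in both libraries, DCN and OGN are not drawn because of values listed at 0, and THY1 and BGN are the most abundant of the 8 genes drawn.

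CPXM1 and BGN mark the ends of the range among the genes with at least 1 FPKM, and their promoters are shown to set the sequences side by side. RefSeq promoters on GRCh38.p14, from 250 bases before to 50 bases after the start, were given for 5 of the 10 genes. Capitals mark GGGCGG or its reverse complement CCGCCC, the GC box bound by SP1-type factors, and both strands were searched. The CPXM1 promoter lies at chr20:2800578-2800877 on the minus strand and the BGN promoter at chrX:153494730-153495029 on the plus strand.
CPXM1: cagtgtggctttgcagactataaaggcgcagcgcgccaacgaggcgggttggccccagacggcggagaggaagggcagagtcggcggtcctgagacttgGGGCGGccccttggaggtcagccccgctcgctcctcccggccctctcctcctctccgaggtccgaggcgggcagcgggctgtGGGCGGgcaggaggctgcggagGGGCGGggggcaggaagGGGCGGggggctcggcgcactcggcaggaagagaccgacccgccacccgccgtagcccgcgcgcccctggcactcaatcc
BGN: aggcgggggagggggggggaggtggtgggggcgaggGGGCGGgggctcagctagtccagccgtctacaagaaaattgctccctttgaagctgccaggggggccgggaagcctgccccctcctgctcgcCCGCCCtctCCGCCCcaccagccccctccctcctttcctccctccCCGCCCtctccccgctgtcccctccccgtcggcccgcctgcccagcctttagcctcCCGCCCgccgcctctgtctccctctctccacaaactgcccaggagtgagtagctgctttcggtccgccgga
The CPXM1 promoter held 4 GC boxes and the BGN promoter 5, against at least 1 in 44.9% of 34943 promoters of this length. The CPXM1 promoter had 31 CpG dinucleotides and 73.7% G and C, and the BGN promoter 19 CpG dinucleotides and 71.7% G and C, against medians of 14 and 58.7% over all promoters. TATAAA, or its reverse complement TTTATA, was found in CPXM1 and not in BGN, and in 11.6% of all promoters. The CpG count of CPXM1 was above that of 79.4% of all promoters, and that of BGN above 57.2%. Whether these features had a part in the levels was not tested. The promoter of FMOD held 10 CpG dinucleotides and 2 GC boxes. Both OGN promoters held 0 CpG dinucleotides and 0 GC boxes. The 3 PDPN promoters held 6 to 22 CpG dinucleotides.

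SLRP genes lie in clusters, which the choice of genes did not use. On chromosome 12 of GRCh38 (GENCODE 44), LUM (91102629 to 91111494) and DCN (91140484 to 91183217) are neighbours on the minus strand, with starts 71.7 kb apart. KERA and EPYC, the keratocan and epiphycan genes, follow 53.5 and 106 kb from the start of LUM. KERA had 0 FPKM in AS STRAP KO against 0.0194 FPKM in AS WT, while EPYC was listed at 0 in both. LUM and DCN are both among the genes chosen for their values, and no other gene with at least 1 FPKM starts within 500 kb of either. The second cluster, on chromosome 9, holds OGN, OMD, ASPN and ECM2. OGN, OMD and ASPN were listed at 0 in both libraries, and ECM2 had 0.111 FPKM in AS STRAP KO and 0.0376 FPKM in AS WT. The cluster on chromosome 1 holds FMOD, PRELP and OPTC, of which PRELP had 0.00672 FPKM in AS STRAP KO and 0 in AS WT, and OPTC was at 0 in AS STRAP KO and 0.0326 FPKM in AS WT.

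Outside these clusters, TSKU (tsukushi) was the only other of the 18 SLRP genes with at least 1 FPKM, at 10.9 FPKM in AS STRAP KO and 7.71 FPKM in AS WT, a log2 ratio of 0.50. PODN (podocan) had 0.0905 FPKM in AS STRAP KO and 0.502 FPKM in AS WT. CHADL and CHAD were under 0.1 FPKM in both libraries, and NYX and PODNL1 were listed at 0 in both. In all, 4 of the 18 SLRP genes passed the filter, namely BGN, LUM, DCN and TSKU, and 14 were under 1 FPKM in both libraries. LUM and DCN were the 2 counted as lower by 2-fold or more, DCN through its listed 0, and 0 were higher. The shares over all expressed rows were 10.6% lower and 8.31% higher. Since BGN, LUM and DCN were chosen for these values, nothing is read from this count.

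The genes that start near the stromal markers were not used to choose them, and the share of them within 2-fold can be set beside the 81.1% of all expressed rows. That share differed between the genes. It was 9 of 13 expressed rows near FMOD, 5 of 10 near OGN and 1 of 2 near PDPN. Within 500 kb of the start of CD248, on chromosome 11 (66314494 to 66317044), 31 of 34 expressed rows were within 2-fold, with a median log2 ratio of -0.31. All 13 expressed rows within 500 kb of THY1, at 119415476 to 119424985 on the same chromosome, were within 2-fold, from -0.40 to 0.90 on the log2 scale. RPS25, TRAPPC4, HYOU1 and VPS11 also start in that window but were listed at 0 in both libraries, as RPS18 was. They are not among the 13, and their levels are not known. Around CPXM1, on chromosome 20 (2794074 to 2800627), 12 of 14 were within 2-fold. The exceptions there were EBF4, a transcription factor gene with a log2 ratio of 1.18, and a row shared by C20orf141, TMEM239 and an overlapping gene, which starts 14.4 kb from CPXM1 and had 0.101 FPKM in AS STRAP KO and 1.21 FPKM in AS WT.

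FAP, on chromosome 2 (162170684 to 162245151), lies beside DPP4, its closest relative among the dipeptidyl peptidases. DPP4, whose start is 171 kb away, had 0.0984 FPKM in AS STRAP KO and 0.665 FPKM in AS WT, a log2 ratio of -2.76, but was under 1 FPKM in both. On the other side of FAP, IFIH1 (73.5 kb away) and GCA (73.7 kb) had log2 ratios of 0.37 and -0.78. Around BGN, on chromosome X (153494980 to 153509546), 14 of 17 expressed rows were within 2-fold. The other 3 were higher in AS STRAP KO by more than that, against 8.31% of all expressed rows. They were DUSP9 (log2 ratio 2.50), PDZD4 (1.86) and PNCK (1.26). PDZD4 and PNCK passed the filter only through AS STRAP KO, so a difference in that direction was favoured by the filter. The median of these 17 rows was 0.38, against 0.00 over all expressed rows, and BGN itself was at 0.89.

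**Figure D3:**
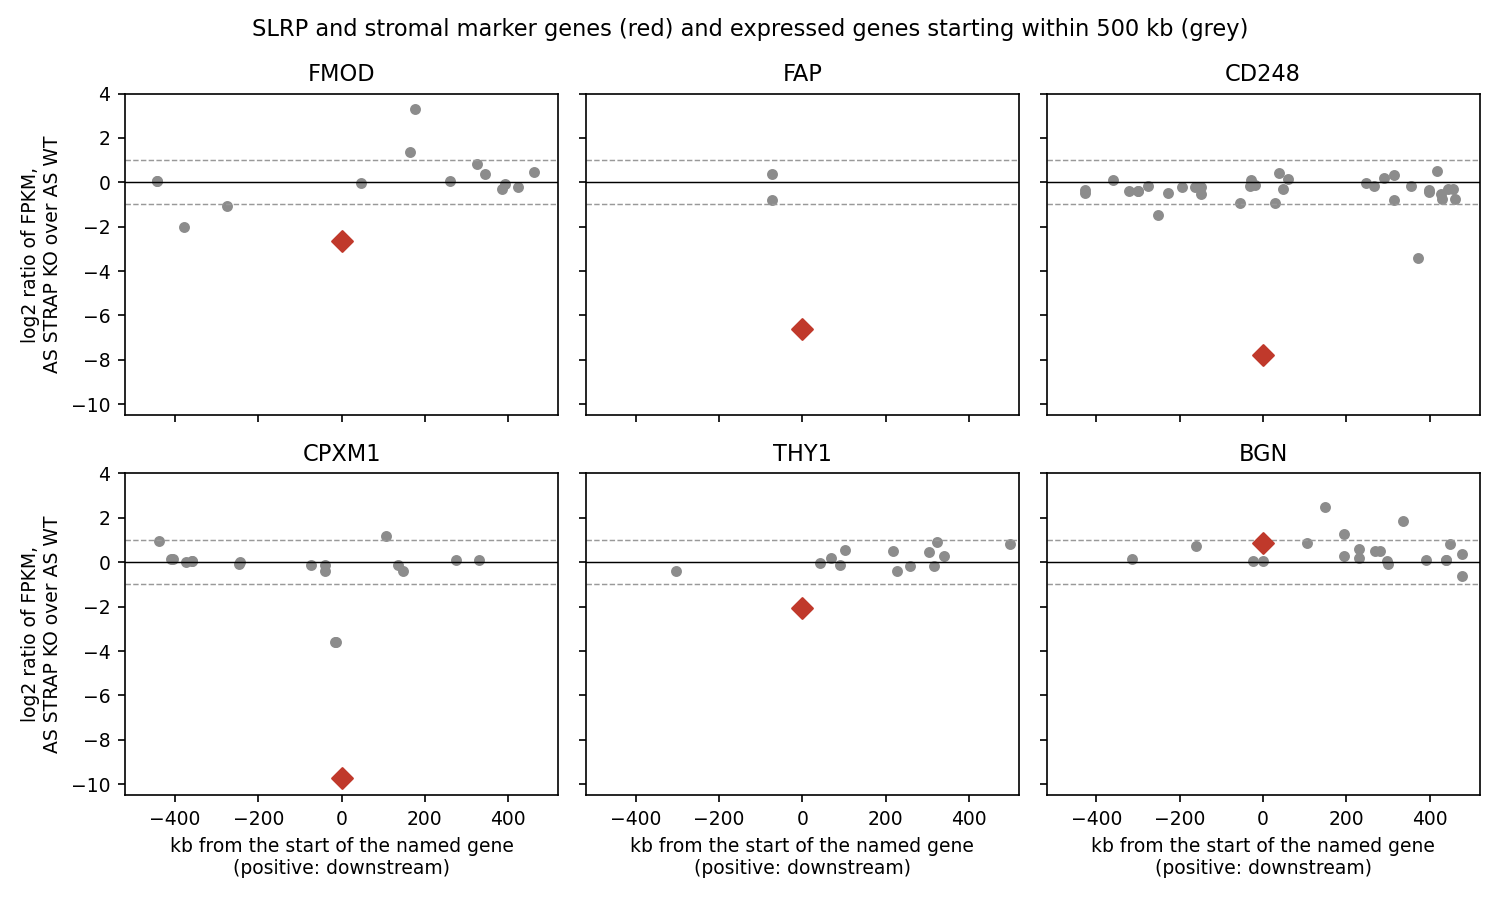
Log2 ratio of AS STRAP KO over AS WT for 6 of the genes (red diamonds) and for the expressed genes that start within 500 kb (grey), by distance in kb from the start of the named gene in its direction of transcription; dashed lines mark 2-fold. A row listed at 0 in AS STRAP KO near CD248 is not drawn, and all 13 rows near THY1 lie between the dashed lines.

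The enzymes that build the sugar chains of SLRPs were measured as 2 lists, chosen with earlier results of these data known. Among 6 expressed genes of keratan sulfate synthesis, 3 were lower in AS STRAP KO by 2-fold or more and 0 higher, with a median log2 ratio of -0.68. All 3 are sulfotransferases. The shares over all expressed rows were 10.6% lower and 8.31% higher. CHST1, which sulfates galactose, had 0.101 FPKM in AS STRAP KO and 2.14 FPKM in AS WT. CHST6, the N-acetylglucosamine sulfotransferase of the cornea, had 0.0609 FPKM in AS STRAP KO and 1.04 FPKM in AS WT, and CHST2 had 3.40 FPKM in AS STRAP KO and 7.26 FPKM in AS WT. Of the genes that lengthen the chain, B3GNT2 had a log2 ratio of 0.52, and B4GALT1 and B4GALT4 had log2 ratios of -0.27 and 0.07.

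Among 17 expressed genes of chondroitin and dermatan sulfate synthesis, 0 were lower by 2-fold or more and 3 higher, with a median log2 ratio of -0.02. The shares over all expressed rows were 10.6% lower and 8.31% higher. CSGALNACT1, which adds the first N-acetylgalactosamine of the chain, had 3.38 FPKM in AS STRAP KO and 0.201 FPKM in AS WT. CHPF, a chondroitin polymerizing factor, had 71.2 FPKM in AS STRAP KO and 26.1 FPKM in AS WT, and the sulfotransferase CHST7 had 1.65 FPKM in AS STRAP KO and 0.485 FPKM in AS WT. The lowest ratio of this list was that of B3GAT3, a linker enzyme, at -0.71. CHST1, CHST6, CSGALNACT1 and CHST7 passed the filter only through the library where they were higher, so a difference in that direction was favoured by the filter. In the chondroitin and dermatan sulfate list 14 of 17 genes lay within 2-fold, against 81.1% of all expressed rows, and in the keratan sulfate list 3 of 6. The difference between the lists was not tested.

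**Figure D4:**
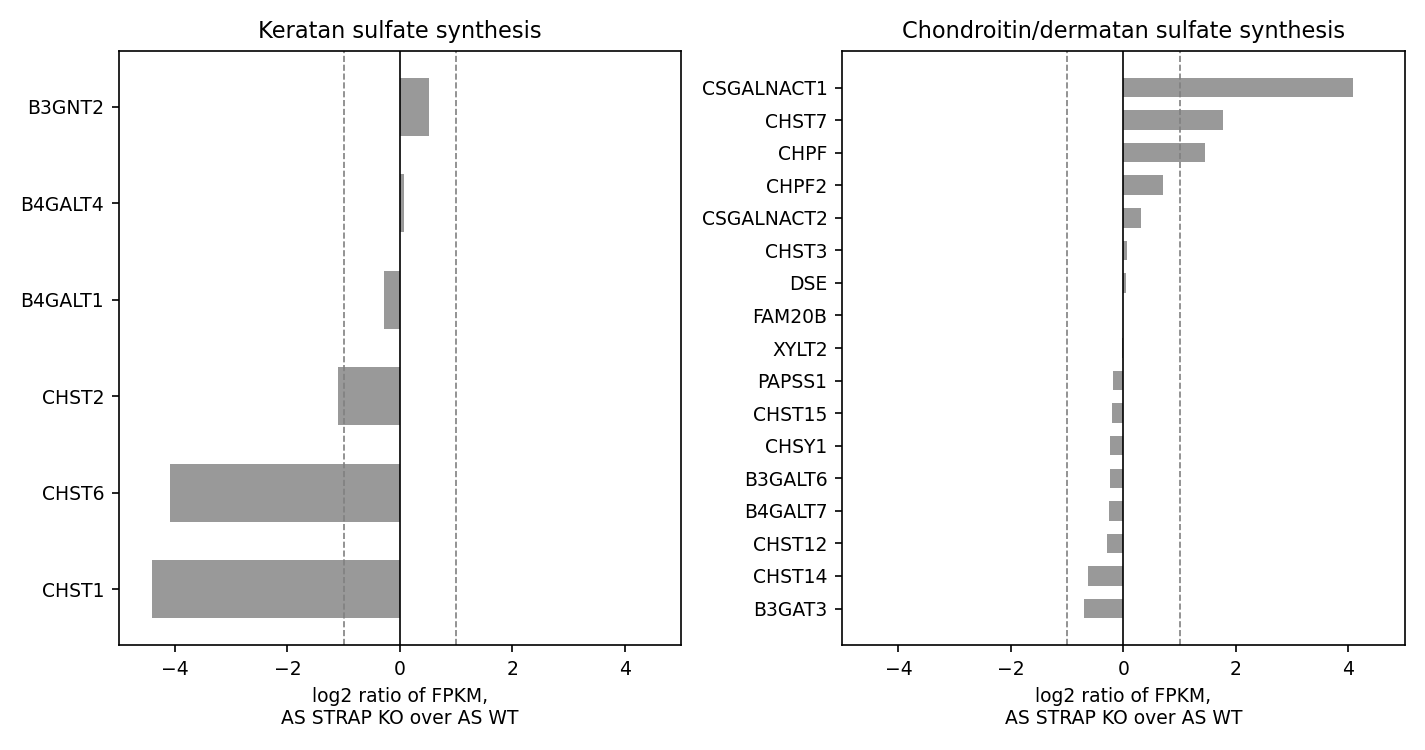
Log2 ratio of AS STRAP KO over AS WT (bars from 0) for the expressed genes of keratan sulfate synthesis and of chondroitin and dermatan sulfate synthesis; dashed lines mark 2-fold. CHST1, CHST6 and CHST2 pass 2-fold to the left, and CSGALNACT1, CHST7 and CHPF pass it to the right.

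Among 7 expressed matrix partners of SLRPs, 1 was lower in AS STRAP KO by 2-fold or more and 0 higher, with a median log2 ratio of 0.40. The shares over all expressed rows were 10.6% lower and 8.31% higher. COL3A1, the type III collagen chain, had 0.242 FPKM in AS STRAP KO and 17.8 FPKM in AS WT. It passed the filter only through AS WT. COL1A1, a chain of type I collagen that SLRPs bind, had 785 FPKM in AS STRAP KO and 459 FPKM in AS WT, which is 9.61 and 10.4 times the level of BGN in the same order. COL1A2, its partner chain, had 0 FPKM in AS STRAP KO against 0.788 FPKM in AS WT. COL6A2 and COL6A3, chains of type VI collagen, which binds biglycan, had log2 ratios of 0.90 and 0.79.

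Of 15 expressed receptors and proteases of SLRPs, 4 were lower in AS STRAP KO by 2-fold or more and 5 higher, with a median log2 ratio of -0.18. Of all expressed rows, 10.6% were lower and 8.31% higher by 2-fold or more. TLR4 and MMP3 passed the filter only through the library where they were higher. TLR4, a receptor of soluble biglycan in a row shared with an overlapping gene, had 1.94 FPKM in AS STRAP KO and 0.0297 FPKM in AS WT. TLR2, the other toll-like receptor of biglycan, had 2.95 FPKM in AS STRAP KO and 1.24 FPKM in AS WT. ITGA2, the collagen-binding integrin chain, had a log2 ratio of 1.84 and ADAMTS4, an aggrecanase, one of 1.42, while the protease gene MMP3 had one of -2.18. The other lower genes were MMP2, IGF1R and MET, with log2 ratios of -1.33, -1.29 and -1.25. MMP14 was the remaining higher gene, with a log2 ratio of 1.01. BMP1, which removes the propeptide of biglycan, had 30.5 FPKM in AS STRAP KO and 33.6 FPKM in AS WT.

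Of 17 expressed relatives and partners of the surface markers, 15 were within 2-fold, against 81.1% of all expressed rows. Of 5 expressed genes around FAP, such as DPP8, DPP9 and PREP, 0 passed 2-fold in either direction. The relatives of CPXM1 that were expressed, CPE and CPD, had log2 ratios of -0.20 and -0.29. MMRN2, a matrix ligand of CD248, had 6.40 FPKM in AS STRAP KO and 11.2 FPKM in AS WT. Of 9 expressed partners of PDPN and THY1, ITGB3, in a row shared with overlapping genes, was lower in AS STRAP KO by 2-fold or more, and ITGB2 was higher.

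A wider list of fibroblast markers was mixed. Of 19 expressed, 5 were lower and 3 higher in AS STRAP KO by 2-fold or more, and the median log2 ratio was -0.13. Of all expressed rows, 10.6% were lower and 8.31% higher by 2-fold or more. MFAP4, a microfibril protein, had 17.5 FPKM in AS STRAP KO and 72.7 FPKM in AS WT. The other lower genes were SERPINF1, TAGLN, NT5E and PDGFRB, the platelet-derived growth factor receptor beta gene, with log2 ratios of -1.58, -1.31, -1.23 and -1.17. The co-receptor gene ENG had 8.87 FPKM in AS STRAP KO and 0.248 FPKM in AS WT, and CTHRC1, a secreted collagen repeat protein, had 2.35 and 0.0382 FPKM in the same order. FBLN2, a fibulin, was the other higher gene, with a log2 ratio of 3.62. ENG, CTHRC1 and FBLN2 passed the filter only through AS STRAP KO, so a difference in that direction was favoured by the filter. Of the whole list of 32 markers, 4 were listed at 0 in both libraries, and the list summed to 2424 FPKM in AS STRAP KO and 3229 FPKM in AS WT. Of 6 expressed pericyte markers, NDUFA4L2 was lower and NOTCH3 higher by 2-fold or more, while RGS5 had 614 FPKM in AS STRAP KO and 374 FPKM in AS WT. NDUFA4L2 passed the filter only through AS WT. Whether cells of another kind had a part in the levels of CPXM1, CD248, FAP and LUM was not tested.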

How the data were processed

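Poly A selected RNA from the AS STRAP KO culture and the AS WT culture, 1 library each, was read from a single end over 75 bases after strand-specific library preparation. The authors aligned the reads to GRCh38 and estimated transcript levels, deposited as FPKM, that is, scaled by the authors to transcript length and mapped reads. Tools named in the submitters' notes were bcl2fastq 2.18.0.12, STAR 2.7.6 (the study's methods give another version), Cuffdiff and Cufflinks 2.2.1. No source used here says how replicates entered the column of each condition. The chosen genes and lists were picked with earlier results of these data known.

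Ratios, AS STRAP KO over AS WT, were taken on the log2 scale with no pseudocount. A row counted as expressed from 1 FPKM upward in either library, and those at 2-fold or more as higher or lower, with a 0 in 1 library counted as past 2-fold. Rows holding several symbols counted once. Depth was found from single-transcript genes of 1500 bases or longer, less a mean fragment of 200 bases, as the value at which estimates between 1 and 5 reads were nearest to whole reads. Of 320 such values in AS STRAP KO and 368 in AS WT, 93.8% and 94.8% lay within 0.1 of a whole read. Reads of other genes assume the canonical transcript of GENCODE 44, and their ratio has an exact conditional binomial interval. The depth and 2-fold steps were tested on simulated data. The text names all 10 genes, STRAP, the SLRP family, up to 4 genes of each other list with the largest ratios, and neighbours within 500 kb past 2-fold. In the median over all 7 expressed genes, DCN, at 0 in AS STRAP KO, was ranked lowest by convention, and the median without it is given beside it in the closing section. HAND2, TH, DDC, CHGA, GPC2, VCAN, COL1A2, TLR2, BMP1, DPP4, PREP, IFIH1, GCA, B4GALT1, B4GALT4, SERPINF1, TAGLN, NT5E, PDGFRB and the markers of other cell types at 0 were chosen after their values were seen. MMP2, MMP14, IGF1R, MET, RPS25, TRAPPC4, HYOU1 and VPS11 were also chosen after their values were seen. Neighbours of FMOD, OGN and PDPN past 2-fold are given in the closing section. The alternatives were pseudocounts of 1 and 0.1 FPKM, other filters, 4 scalings and summed rows. Scripts ran in Python 3.11.15 with SciPy 1.17.1, pandas 2.3.3, matplotlib 3.10.9 and numpy 2.4.6.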

Additional observations from a re-analysis of the deposited data

How the results depend on the processing

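With 1 library per condition no library could be left out, and no paired analysis was possible because a single library stands on each side. Under 10 alternatives, 53 of 60 log2 ratios of single genes stayed within the counting interval of the value reported. All 60 kept their sign, but none of the alternatives could have changed one. Filters and summed rows leave these ratios as they are, and an FPKM added to both libraries keeps the sign. The largest shift by a scaling was 0.11, smaller than the size of any of the ratios. The count of genes at least 2-fold lower was 6 with DCN, at 0 in AS STRAP KO, counted as lower and 5 without it, and it was 2 when 1 FPKM was required in both libraries, since that leaves 3 genes. The count at least 2-fold higher was 0, and it was 1 with no filter and 1 after rescaling to a common total, PDPN in both cases, since it then enters the count. The median log2 ratio of the 7 expressed genes, -6.59 with DCN ranked lowest and -5.54 over the 6 genes with a measured ratio, was -3.22 with 1 FPKM added, -4.57 with 0.1 FPKM added, -2.08 with 1 FPKM required in both libraries, -4.49 with no filter, -5.54 with 5 FPKM required in at least 1 library and -5.43 after rescaling to a common total. Adding 1 FPKM brought CPXM1 to -3.93. Rescaling to a common total moved log2 ratios by 0.11, and the upper quartile moved them by 0.01. Values under 0.1 FPKM rest on few reads, so the size of the CPXM1, CD248 and FAP ratios is limited by depth.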

Other observations

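Proteoglycans outside the SLRP family were listed as well, and 9 of 14 expressed were within 2-fold. Of the 14, 3 were lower in AS STRAP KO by 2-fold or more and 2 higher, with a median log2 ratio of -0.13. Of all expressed rows, 10.6% were lower and 8.31% higher by 2-fold or more. SDC2, the membrane heparan sulfate proteoglycan syndecan-2, was 4.22-fold lower in AS STRAP KO, against 55.1 FPKM in AS WT, and SPOCK1 (testican-1) had 1.19 and 8.01 FPKM in the same order. The third lower gene was GPC2, a glypican, with a log2 ratio of -1.05. GPC3, another glypican, was 3.42-fold higher in AS STRAP KO, against 4.38 FPKM in AS WT, and SRGN, the intracellular proteoglycan serglycin, had 3.72 FPKM in AS STRAP KO and 0.426 FPKM in AS WT. SRGN passed the filter only through AS STRAP KO, so a difference in that direction was favoured by the filter. VCAN, the large chondroitin sulfate proteoglycan versican, had a log2 ratio of -0.09.

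Some genes near the low SLRPs and PDPN passed 2-fold, among 13 expressed rows near FMOD, 10 near OGN and 2 near PDPN. Near FMOD, CHI3L1, a secreted glycoprotein, had 346 FPKM in AS STRAP KO and 132 FPKM in AS WT, and MYBPH had 12.4 and 1.25 FPKM in the same order, while ATP2B4 and SNORA77 had log2 ratios of -1.06 and -2.02. Near OGN, IPPK, LINC00475 and a row of SNORA84 and MIR3651 had log2 ratios of 1.15, 1.19 and 1.02, ROR2 had one of -2.24, and the row holding ANKRD19P had 1.16 FPKM in AS STRAP KO and 0 in AS WT. KAZN, near PDPN, had a log2 ratio of -1.59. Near CD248, CTSF and TSGA10IP had log2 ratios of -1.49 and -3.40, and RNU4-39P had 0 FPKM in AS STRAP KO against 6.57 FPKM in AS WT. PTPRC and CD3E of leukocytes, SOX10 and S100B of Schwann cells and CLDN5 of endothelium were listed at 0 in both libraries. The Schwann cell list had FOXD3 at 1.32 FPKM in AS STRAP KO and 0.0161 FPKM in AS WT. EGFL7, of endothelium, had 7.83 FPKM in AS STRAP KO and 0.554 FPKM in AS WT, and the epithelial keratin gene KRT8 had 554 and 518 FPKM in the same order.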
